A study of Drosophila melanogaster with 4 samples.

Results

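Among the Su(Hw) peaks of late Drosophila melanogaster embryos, 646 were both narrow and far from any other peak. They were chosen by their deposited positions alone: an interval on arm 2L, 2R, 3L, 3R, 4 or X qualified when it spanned less than 500 bp and the smaller of its gaps to the neighbouring intervals exceeded 5000 bp. They made up 13.6% of the 4760 peaks on these arms (Clopper-Pearson exact 95% interval 12.6 to 14.6%, which covers counting error only) and belong to a list of 4993 peaks for the whole series. The list came from chromatin immunoprecipitation and sequencing (ChIP-seq), with 2 ChIP and 2 input libraries in the labels, of embryos collected in mass at 16 to 24 h of age and fixed with formaldehyde. The ChIP used Su(Hw)-PG, an affinity-purified rabbit polyclonal antibody against Su(Hw). All libraries came from the strain that the labels write as Y cn bw sp. It carried y[1] and oc[R3.2] on the X chromosome. On the second chromosome it carried the marker alleles cn[1], bw[1] and sp[1], together with Gr22b[1], Gr22d[1] and CG33964[R4.2]. On the third it carried Rh6[1], GstD5[1] and LysC[1], and also MstProx[1] and lab[R4.2]. The samples used here include no other genotype, stage or treatment, and whole embryos mix all tissues.

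Su(Hw), Suppressor of Hairy-wing, is a DNA-binding protein with a row of zinc fingers, best known for binding the insulator of the gypsy retrotransposon. There it works with partners such as CP190 and Mod(mdg4) to keep enhancers from acting on promoters on the far side. It also binds many sites without gypsy, some alone and some in groups, and acts as a repressor at a number of genes. The deposited list gives each peak's position, its extent and 1 score from the authors' peak caller, whose statistic is not named in the sources used here. Higher scores are called stronger below. Positions are those of FlyBase release 5 as deposited, and starts may be counted from 0, as in BED files. No value per library was in the list, so the depth is unknown and no spread between replicates could be given. Because width and gap chose the peaks and the score comes from the same peak calling, the values below are descriptions, and no difference between classes of peaks was tested.

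Narrow isolated peaks were weak, and none reached a score of 100, a level that was common among the other Su(Hw) peaks. Their scores ran from 6.18 to 72.7, with a median of 15.0 (order-statistic 95% interval 14.4 to 16.0) and an interquartile range of 10.9 to 21.0. The median over all 4760 peaks was 33.7, and only 39 of the 646, or 6.04%, lay above it. A score of 100 or more was held by 0 of 646 (exact 95% interval up to 0.569%), against 29.8% of all peaks and 45.2% of the 1202 isolated peaks that were 500 bp or wider. No narrow peak of any spacing reached 100 either, in 1843 intervals.

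The weakest 25% of all peaks, with scores up to 14.01, held 286 of the 646, or 44.3% (40.4 to 48.2%). A further 321 lay between that level and the median of the list. Scores under 10 were held by 116, scores of 20 or more by 179, scores of 30 or more by 62, and scores of 50 or more by 8. In turn, 23.9% of the 1195 peaks scoring 14.01 or less were narrow and isolated. Of the broad isolated peaks, 15 of 1202 were that weak, and of the 930 narrow peaks within 1 kb of another interval 677 were, or 72.8%.

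**Figure D1:**
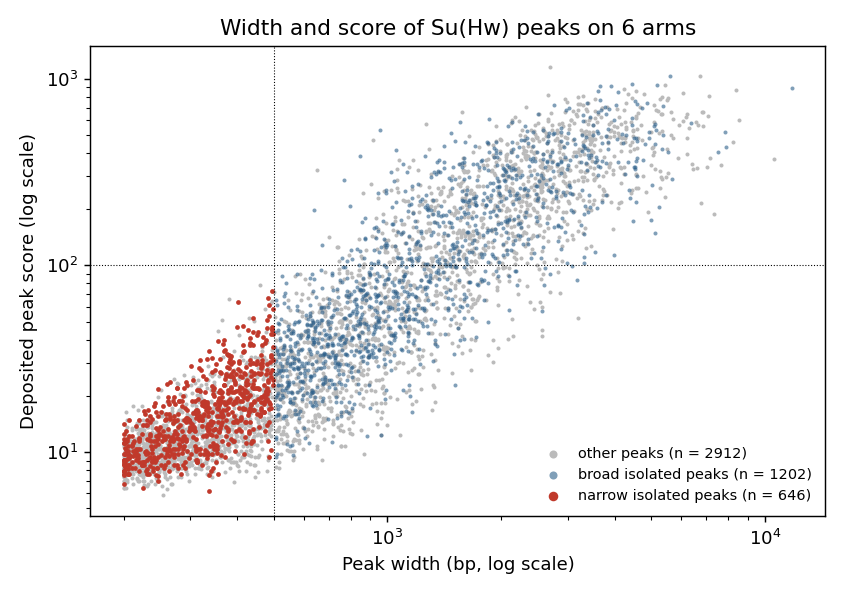
Width in bp against the deposited score, both on log scales, for each of the 4760 peaks on the 6 arms. Dotted lines mark a width of 500 bp and a score of 100. The 646 narrow isolated peaks (red) fill the lower left up to a score of 72.7, and no peak under 500 bp lies above the horizontal line.

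The strongest narrow isolated peaks were on the third chromosome, whose arms 3L and 3R held 113 and 179 of the 646 members. The highest score, 72.7, belonged to a peak of 493 bp on 3R from 23911670 to 23912163, with its nearer neighbour 15.4 kb and its farther one 101 kb away. The next pair were on 3L, from 8721963 to 8722446 (score 66.8) and from 15007466 to 15007867 (score 64). The fourth was on 3R from 27671826 to 27672312 (score 61.4). These 4 scores exceeded those of 62.4 to 65.4% of all peaks.

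Of the other 6 among the 10 strongest, 3 lay on 3R, from 23330557 to 23331054 (score 58.2), from 8894620 to 8895105 (53.7) and from 2535240 to 2535720 (50.7). The remaining 3 lay on 3L, from 15486883 to 15487324 (score 51.95), from 7945659 to 7946072 (47.05) and from 10607366 to 10607766 (46.5). The last of these tied with the strongest member on X, from 10043390 to 10043883. The 10 strongest were 400 to 497 bp wide, in the upper part of the permitted range.

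The strongest members on the other arms were lower still. On 2L the highest score was 45.1 (7904344 to 7904838), on 2R it was 38.5 (17857147 to 17857578), and on chromosome 4 it was 16.4 (685642 to 685893). The 5 weakest members scored 6.18 to 7.45. They lay on 3L from 3022095 to 3022431 and from 11555162 to 11555408, and on 2L from 20994735 to 20994960, from 3989790 to 3989990 and from 16314997 to 16315244. The first of them, 336 bp wide and 44.6 kb from its nearer neighbour, had a stronger neighbour with a score of 70.7.

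Widths, which the rule capped, spread over the whole permitted range. The median was 333 bp and the interquartile range 261 to 405 bp. The class of 200 to 249 bp held 140 members, or 21.7%, and the class of 450 to 499 bp held 80, or 12.4%. All narrow peaks were still more frequent at the lower end, with 507 and 192 in these classes, so members made up 27.6% of the narrowest class and 41.7% of the widest. The narrowest intervals in the list span 200 bp from start to end, and 17 members had exactly this width. They include peaks on 2L from 2621490 to 2621690 (score 7.88) and from 8544688 to 8544888 (score 11.8). The former was 77.1 kb and the latter 9.35 kb from a neighbour scoring 511 and 612. Another on 2L, from 3989790 to 3989990 (score 6.73), was 20.7 kb from a neighbour scoring 34.7.

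The limit of 500 bp cut through a continuous range of widths. The widest members measured 498 bp on 3R from 24171600 to 24172098 (score 22.8) and on X from 7584461 to 7584959 (score 24.2), and 497 bp on 2L from 7254592 to 7255089 (score 31.1). Other members of 497 bp lay on 3R and scored 36.4, 42.7 and 58.2. The first isolated peaks beyond the limit measured 502 bp on 3L from 18473700 to 18474202 (score 36.4), 504 bp on 3R from 14182505 to 14183009 (score 43.8) and 507 bp on 2R from 11258814 to 11259321 (score 9.44). Scores just inside and just outside the limit overlapped.

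Width and score rose together within the class, less tightly than over all peaks. Spearman's rho was 0.69 over the 646 members and 0.92 over the 4760 peaks, and Pearson's r on log10 values was 0.68 and 0.92. Both measures come from 1 peak calling, the limit at 500 bp narrows the range of widths, and peaks are not replicates, so no p is given. The median score of the members rose from 9.97 at 200 to 249 bp to 12.2, 14.7, 18.4, 21.4 and 24.3 in the 5 following classes of 50 bp.

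At equal width, narrow isolated peaks scored higher than narrow peaks lying within 1 kb of another interval. The latter numbered 930 and had a median width of 291 bp and an overall median score of 11.4. In the class of 450 to 499 bp the median score was 24.3 for 80 isolated peaks (95% interval 21.0 to 28.1) and 16.3 for 82 peaks near another (14.4 to 18.6). At 400 to 449 bp the medians were 21.4 (19.7 to 23.3) and 13.95 (12.2 to 16.1), and at 350 to 399 bp they were 18.4 (17.2 to 19.7) and 13.6 (12.2 to 14.4). These intervals take single peaks of 1 list as units and are no test of the difference.

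The difference was small among the narrowest peaks. At 300 to 349 bp the medians were 14.7 for isolated peaks (13.5 to 16.0) and 12.9 for those near another (11.8 to 13.5), with slightly overlapping intervals. At 250 to 299 bp they were 12.2 (11.8 to 13.6) and 10.8 (10.3 to 11.2). At 200 to 249 bp they were 9.97 (9.44 to 10.8) and 9.47 (9.17 to 9.93), with overlapping intervals. The 267 narrow peaks whose nearest interval lay between 1 and 5 kb away had medians from 9.38 to 22.4 over the 6 classes. Their intervals overlapped those of the isolated peaks in each class.

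The direction was the same on each large arm. In 3 classes of 100 bp on 5 arms, the isolated peaks had the higher median in 15 of 15 cases. From 400 to 499 bp the medians on X were 23.98 for 34 isolated peaks and 13.6 for 19 peaks near another. On 3L they were 28.85 and 18.8, on 3R 21.99 and 13.9, on 2R 20.35 and 14.8, and on 2L 20.2 and 16.96. From 200 to 299 bp the differences ran from 0.035 on 3R and 0.08 on 2L to 2.52 on X. Classes of 100 bp match width less closely than those of 50 bp. Over all arms, 140 members and 302 peaks near another were 200 to 249 bp wide, against 108 and 189 at 250 to 299 bp. How far such differences in width enter into the differences by arm was not tested. The comparison at equal width was chosen after the values had been seen. How far the division of broad regions into several intervals enters into it was not tested.

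**Figure D2:**
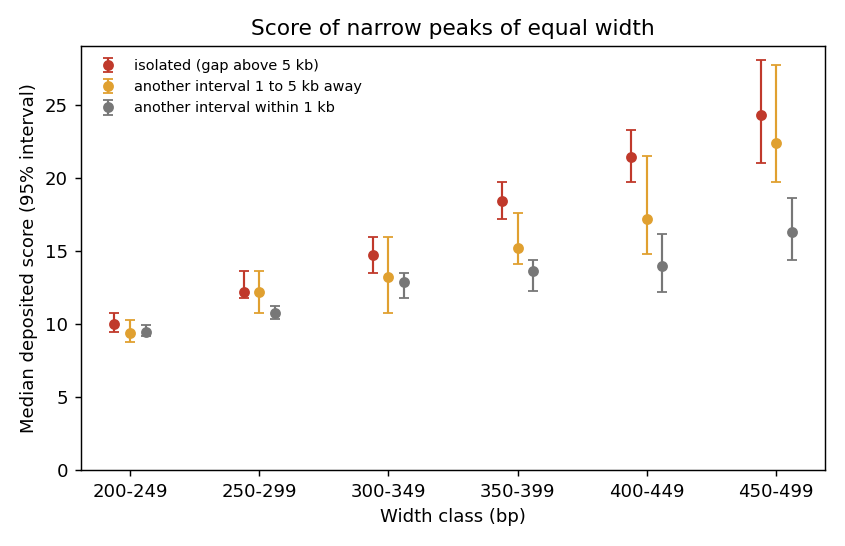
Median deposited score of narrow peaks in 6 width classes of 50 bp, with order-statistic 95% intervals as bars. Isolated peaks (red) rise from 9.97 to 24.3, peaks with another interval within 1 kb (grey) from 9.47 to 16.3, and peaks with one 1 to 5 kb away (orange) lie between or overlap the isolated ones.

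Many members shared exactly the same score. The 646 members had 281 distinct scores, and 439 of them, or 68.0%, had a score that another member also held. The most frequent was 11.46, held by 16 members, followed by 9.76 and 10.43 with 14 each. These scores were not particular to members, since 35, 40 and 31 of all peaks on the arms held them. Among the 1202 broad isolated peaks, 46.3% shared their score with another of the class, although that class is larger. Their scores spread more widely, from 9.44 to 1029 against 6.18 to 72.7. How far the range enters into the shares was not tested, and no share was computed for narrow peaks that were not isolated.

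Most members stood much farther from other peaks than the rule asked. The median gap to the nearer neighbour was 15.1 kb (95% interval 14.0 to 16.6 kb) and to the farther one 46.1 kb, for the 644 members with neighbours on both sides. The nearer gap exceeded 10 kb for 462 members, 20 kb for 247, 50 kb for 48 and 100 kb for 6. Broad isolated peaks, chosen with the same gap, had a median nearer gap of 13.8 kb (12.9 to 14.8 kb) and a farther one of 43.4 kb. The intervals of both classes overlapped for the nearer gap.

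The most isolated members flanked an empty stretch near the centromere of 3L. A peak of 200 bp from 23800600 to 23800800 (score 12.5) had no other interval within 583 kb on one side or 655 kb on the other. The nearer of its neighbours was itself a member, from 23216874 to 23217289 (score 37.4), whose other neighbour was 240 kb away. The next most isolated were a peak on 2L from 17079737 to 17080068 (score 9.76, nearer gap 116 kb), 1 on 2R from 4712351 to 4712589 (score 10.4, nearer gap 111 kb) and the strongest member of chromosome 4 (nearer gap 107 kb). Whether reads can be placed in the empty stretches was not tested.

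At the other limit, the members closest to another interval were on 2L from 11919545 to 11919919 (nearer gap 5023 bp, score 18), on 3R from 14093308 to 14093805 (5062 bp, score 42.7) and on 3R from 15320877 to 15321204 (5089 bp, score 18.8). The narrow peaks that just missed the limit included a pair on X, from 9419056 to 9419268 (score 11.5) and from 9424265 to 9424467 (score 10.1), 4997 bp apart. The third lay on 3L from 9051132 to 9051378 (score 9.76), 4980 bp from a peak scoring 423.

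Beyond the limit of 5 kb, the degree of isolation went with neither score nor width. Members with a nearer gap of 5 to 10 kb had a median score of 15.6 (n = 184). Those at 10 to 20 kb had 14.8 (n = 215), those at 20 to 50 kb 15.0 (n = 199), and those beyond 50 kb 14.8 (n = 48). Their median widths were 327, 333, 336 and 336.5 bp. Spearman's rho between nearer gap and score was -0.04 over the 646 members.

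**Figure D3:**
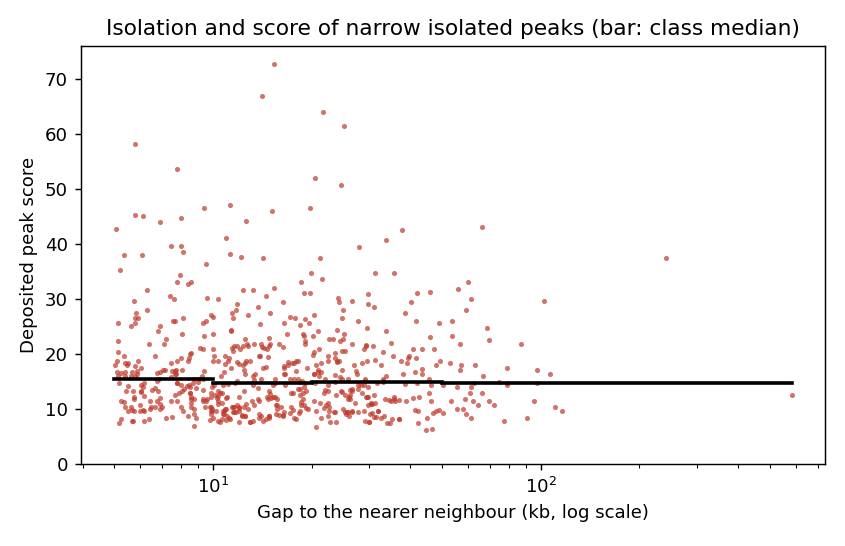
Gap to the nearer neighbour in kb, on a log scale, against the deposited score of each of the 646 narrow isolated peaks. Black bars are the medians for gaps of 5 to 10, 10 to 20, 20 to 50 and over 50 kb, which stay between 14.8 and 15.6.

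The nearest neighbours of narrow isolated peaks were of all strengths. The rule did not use a neighbour's own score or width, and 624 different intervals served as nearest neighbour of the 646 members. Their scores ran from 7.01 to 940, with a median of 37.6 (95% interval 32.9 to 43.8). The median was 33.8 for the nearest neighbours of all peaks (32.1 to 35.8). The nearest neighbour scored 100 or more for 191 members, or 29.6% (26.1 to 33.2%), and for 31.05% of all peaks (29.7 to 32.4%). It scored higher than the member in 485 cases, or 75.1%. The nearest neighbour scored higher for 49.85% of all peaks and 37.0% of broad isolated peaks. This share depends on a peak's own score as well as on that of its neighbour.

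Neighbours of broad isolated peaks had a median score of 46.8 (42.5 to 51.95), and 33.8% of them (31.1 to 36.5%) scored 100 or more. The neighbours of narrow isolated peaks had the lower median on 6 of 6 arms. Examples were 34.1 against 48.9 on 2R and 33.1 against 35.5 on 2L. On chromosome 4 the medians were 49.3 and 342.4, from only 4 and 5 peaks. The intervals of both medians overlapped slightly, and many neighbours belong to either class themselves, so the values are not independent. Among members, the score of the neighbour and that of the member were unrelated in rank, with Spearman's rho of -0.04 (n = 646). The 267 narrow peaks with another interval 1 to 5 kb away had a median neighbour score of 39.65 (29.05 to 47.1), close to that of the members.

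In the median, peaks scoring 100 or more lay farther from narrow isolated peaks than from broad isolated ones. By definition they can never lie closer than the nearest neighbour. The edge of the nearest peak scoring 100 or more lay a median of 39.1 kb from a narrow isolated peak (interquartile range 18.9 to 71.7 kb) and 31.6 kb from a broad isolated one (14.4 to 67.2 kb). The median was larger for the narrow peaks on each of the 6 arms, from 38.2 against 36.4 kb on X to 70.3 against 31.45 kb on chromosome 4, where the classes hold 4 and 5 peaks. No such strong peak lay within 50 kb for 258 members, or 39.9%. The same held for 404 broad isolated peaks, or 33.6%, and for 23.7% of all peaks. Broad peaks can themselves be strong, but each peak was measured only to others.

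Most narrow isolated peaks stood singly among other kinds of peak, and some followed each other along an arm. The nearest neighbour was another member for 156 of the 646, or 24.1% (20.9 to 27.6%). It was a narrow isolated peak for 19.6% of broad isolated peaks (17.4 to 22.0%), an overlapping interval, and for 8.24% of all peaks, of which 2912 are not isolated and so cannot have a member as nearest neighbour. Among the members, 53 pairs were nearest to each other. Counting along the arms without regard to distance, 378 members (58.5%) stood singly, 170 in runs of 2 and 54 in runs of 3. Members made up 13.6% of all peaks on the arms. Runs were not counted for other classes, so whether members stood singly more or less often than other peaks was not tested. The longest run, on 3R from 10742253 to 10835511, held 6 members with scores of 9.27 to 39.65 over 93.3 kb. Runs of 5 lay on 3R from 23810295 to 23977666, which includes the strongest member, and from 24171600 to 24292180. These runs were picked after their values had been seen.

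Narrow isolated peaks occurred on every arm and in every megabase examined. On the large arms they numbered 109 for 2L, 111 for 2R, 113 for 3L, 179 for 3R and 130 for X, or 4.65 per Mb of occupied span on 3L to 6.45 per Mb on 3R. Each of 111 full 1 Mb windows held at least 1, with 5.61 ± 2.16 members per window (SD over windows) and at most 10. The count and the gaps depend on how densely other peaks lie, since the rule uses them.

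As a share of all peaks on an arm, members were most frequent on X and 3R among the large arms. They made up 15.5% of peaks on X (exact 95% interval 13.1 to 18.1%) and 15.4% on 3R (13.3 to 17.6%). The shares were 13.0% on 2R (10.8 to 15.4%), 12.2% on 2L (10.1 to 14.5%) and 11.5% on 3L (9.60 to 13.7%). All of these intervals overlapped. Among isolated peaks of any width, 34.96% were narrow (32.8 to 37.2%). On the large arms this share ran from 32.3% on 2L (27.4 to 37.6%) to 38.6% on 3R (34.1 to 43.2%), again with overlapping intervals. Narrow peaks made up 38.7% of all peaks (37.3 to 40.1%) and 41.1% of the peaks that were not isolated (39.3 to 42.9%). Isolated peaks were thus less often narrow than the rest of the list, and these intervals for isolated and other peaks did not overlap.

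Typical scores were alike on the large arms. The median score was 15.9 on X, 15.6 on 3R and 15.5 on 2L, and 14.4 on 3L and 14.1 on 2R. The highest scores differed more, from 38.5 on 2R to 72.7 on 3R. All 8 members scoring 50 or more were on 3L or 3R, which together carried 113 and 179 of the 646 members. With so few strong members, a difference between arms was not tested.

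Chromosome 4, the small chromosome where genes lie among heterochromatin, carried 4 members among its 25 peaks. They scored 7.59 (467404 to 467638), 16.4 (685642 to 685893), 9.27 (1051081 to 1051314) and 10.1 (1222962 to 1223191), and measured 229 to 251 bp. The first lay 29978 bp from the strongest peak of that chromosome (score 924). The fourth was the last interval of the chromosome and had a neighbour on one side only.

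**Figure D4:**
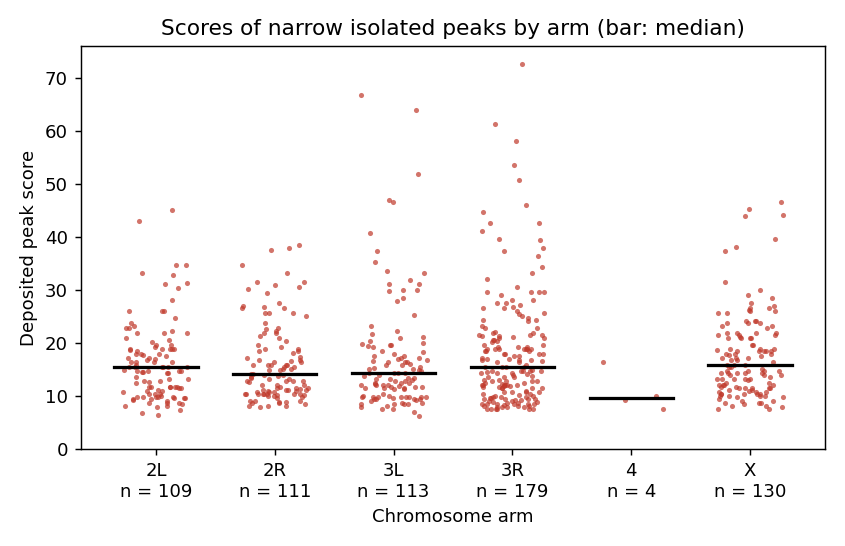
Deposited score of each of the 646 narrow isolated peaks by chromosome arm, with the median as a black bar. Medians on the 5 large arms lie between 14.1 and 15.9, the 4 peaks of chromosome 4 score 7.59 to 16.4, and scores of 50 or more occur on 3L and 3R.

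Along the large arms, the share of peaks that were narrow and isolated was lowest just short of the middle. Each arm's span from its first peak to its last was divided into 10 equal parts, counted from the centromere. In the fifth part, 47 of 491 peaks, or 9.57%, were members, against 12.4 to 16.2% in the other parts. On single arms the fifth part had 13.5% on X, 12.9% on 3L, 9.76% on 2L, 7.63% on 3R and 5.50% on 2R, and it was the lowest of the arm on 2R and 3R only. The lowest shares elsewhere were 9.43% on 2L, 7.14% on 3L and 11.2% on X, in other parts. The fifth part was picked after the values had been seen, and no interval was computed for its share. The part nearest the centromere held 47 of 642 members, or 7.32% (5.43 to 9.62%), 6.02% of broad isolated peaks (4.74 to 7.52%) and 6.44% of all peaks (5.76 to 7.18%). These intervals overlapped.

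**Figure D5:**
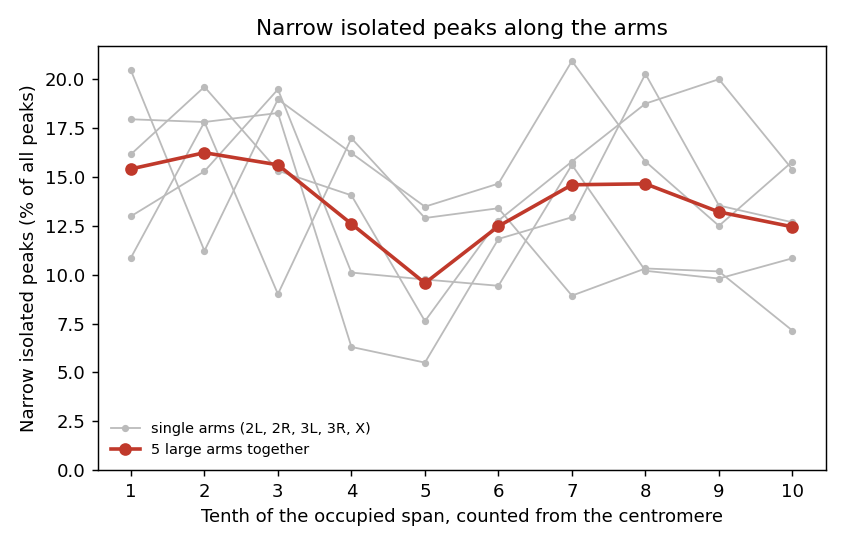
Share of all peaks that are narrow and isolated, in percent, in 10 equal parts of each arm's occupied span, counted from the centromere. The red line joins 5 large arms, with its lowest value of 9.57% in the fifth part, and grey lines show single arms, which vary between 5.50 and 20.9%.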

How the data were processed

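The data used were 1 deposited peak list for 2 ChIP and 2 input libraries. Intervals are on FlyBase release 5 and were called with MACS, per the file headers. The submitters' processing notes name the build BDGP5 and the tools MACS2, BWA and CASAVA (versions 1.7.0.3 and 1.7.0.2). Their roles and settings, and any pooling of libraries, were not stated in those sources. Each interval has 1 score, deposited by the authors. Width was end minus start, and gaps were counted over all intervals of the list. No genome or annotation of release 5 was used, so no sequence or gene is given and the planned search for the core motif TGCATA was not run. The members, measures and classes were chosen with earlier results of these data known. Peaks named were the 10 strongest, the strongest per arm, the 5 weakest, the 5 most isolated, the 3 narrowest and widest, and the 3 nearest each limit. Intervals on shares are exact, on medians from order statistics, and cover counting error only. Joining united intervals at most 1000 bp apart. Python 3.11.15, numpy 2.4.6, pandas 2.3.3, scipy 1.17.1 and matplotlib 3.10.9 were used, and the rule recovered all 2655 simulated intervals correctly.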

Additional observations from a re-analysis of the deposited data

Results flagged for a closer look

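The same limits of width and gap also picked out intervals on sequences outside the 6 arms, which entered no comparison above. Of 32 intervals on the Het sequences, assembled pieces of centric heterochromatin, 9 were narrow and isolated (28.1%, exact 95% interval 13.7 to 46.8%), with a median score of 19.3. Of 27 on the unplaced collection U, 17 were (63.0%, 42.4 to 80.6%), with a median score of 20.6. Of 170 on Uextra, 123 were (72.4%, 65.0 to 78.9%), with scores of 7.02 to 68.9 and a median of 26.1. The share on the arms was 13.6%. U and Uextra are strings of unplaced scaffolds, so a gap there is no distance along a chromosome, and no control level was at hand. None of the 4 mitochondrial intervals met the limits.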

How the results depend on the processing

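The number of narrow isolated peaks stayed within 1.5 times the 646 under all 7 alternatives, from 462 with a gap limit of 10000 bp to 889 with the width limit at the median of 681 bp. Settings of width moved what width sets. With limits of 400, 600 and 681 bp the median score was 12.9, 16.7 and 18, the share among the weakest 25% of all peaks 56.5, 37.3 and 33.5%, and the narrow share of isolated peaks 25.8, 42.75 and 48.1%. Keeping intervals that scored 10 or more gave 16.9, 32.1% and 29.4%, and a median neighbour score of 44.2. Joining intervals within 1000 bp first gave a neighbour score of 52.55 and a narrow share of 26.95%, since joined neighbours carry their highest score and isolated broad regions are added. Gap limits of 2000 and 10000 bp moved none of these beyond their intervals. The share scoring 100 or more was 0 except with the limit at 681 bp (0.225%). The score difference at equal width, added after the data had been seen, stayed positive in the 6 alternatives that allow it (1.6 to 7.68, from 3.295 as the median over classes). The range of 1 SD over classes around it reached below 0 with a width limit of 400 bp (-0.26 to 3.46) and a gap limit of 2000 bp (-0.19 to 6.07), and began at 0.061 in the reported setting. After joining, no narrow peak has another within 1000 bp, so it has no value. Of 31 named members, 13 remained with a limit of 400 bp, and 21 or more under the others. No paired analysis was possible because the list gives no values of single libraries, which also kept replicates from being left out.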
